A study of Mus musculus with 12 samples.

Results

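The genes described here are 50 mouse genes of antioxidant defence, glutathione metabolism and detoxification, measured by RNA-seq in mouse inner medullary collecting duct (mIMCD3) cells with and without Pkd1 or Pkd2. Members were taken from a list of symbols, and each symbol was matched to its Ensembl gene. All 50 were found among the 47642 genes of the table, and 44 averaged at least 1 normalized count over the 12 libraries and were tested among 18552 genes. The 6 that were not tested were Gpx2, Gpx7, Gsta1, Gsta2, Aldh3a1 and Cyp1a1. The libraries were 4 of wild-type (Wt) cells, 4 of a Pkd1-/- line and 4 of a Pkd2-/- line. mIMCD3 is an epithelial line from the terminal collecting duct of a mouse with an SV40 transgene, and all 3 genotypes carry that transgene. The Pkd1-/- line is 1 clone with a CRISPR/Cas9 deletion that the authors describe as full. The listed ends of that deletion lie just inside the gene on both sides. The Pkd2-/- line is 1 clone in which TALEN nucleases removed exons 4 to 9. RNA was taken 4 days after full confluency from cells in medium with serum, penicillin and streptomycin, with each library from its own dish, so that p-values measure the spread between dishes of 1 line and not between clones.

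Reactive oxygen species and electrophiles are cleared by a small set of enzyme systems. Glutathione, a tripeptide made by glutamate-cysteine ligase and glutathione synthetase, is used by glutathione peroxidases to reduce peroxides and by glutathione transferases to tag electrophiles, whose conjugates leave the cell through exporters of the ABC family. Thioredoxin and the peroxiredoxins form a parallel route to peroxide removal. Many of these genes are targets of the transcription factor NRF2 (gene Nfe2l2), which KEAP1 holds at low levels in unstressed cells and which binds the antioxidant response element. The aryl hydrocarbon receptor (gene Ahr), activated by planar aromatic ligands, binds the xenobiotic response element and drives the cytochromes of the CYP1 family. Epithelial cells of the kidney use these systems to handle urinary toxins and metabolic oxidants.

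In the 12 libraries, about 23200000 to 30300000 reads were estimated to lie on genes, and 1.36% to 3.615% of normalized counts came from mitochondrial genes. Pkd1 held 682 to 883 normalized counts in Wt libraries, 30 to 49 in Pkd1-/- libraries and 1057 to 1492 in Pkd2-/- libraries. Pkd2 counts over the whole gene do not test the deletion of exons 4 to 9, and they were 3438 to 4467, 2545 to 2858 and 3855 to 4135 in the same order. Of 14 markers of collecting duct and epithelium, 11 averaged at least 10 normalized counts, whereas the water channel Aqp2 was at 0 in every library, and Aqp3 and Avpr2 were at or near 0. Summed counts of the 14 markers were 71180 to 78915 in Wt, 71335 to 73109 in Pkd1-/- and 79693 to 82577 in Pkd2-/- libraries, sums made up largely of Epcam, Krt18, Cdh1 and Krt8. Single markers moved more than the sums. Gata3, a transcription factor of the collecting duct, was at 227 ± 34.3 (SD, n = 4) in Wt, 48.5 ± 5.74 in Pkd1-/- and 354 ± 58.4 in Pkd2-/- cells (limma, adjusted p = 6.34e-10 and 0.000968). In Pkd2-/- cells, Pax2 rose with a log2 fold change of 0.64 (limma, adjusted p = 3.48e-08). Cdh1, Krt18, Cdh16, Pax8, Tfcp2l1 and Scnn1a also rose there, by 0.18 to 0.66 (limma, adjusted p of at most 0.00911). Only Hoxb7 and Epcam fell, with -0.52 and -0.38 (limma, adjusted p = 2.95e-06 and 6.05e-06). In Pkd1-/- cells, Cdh16 and Tfcp2l1 fell with -0.34 and -0.36 (limma, adjusted p = 4.64e-05 and 0.00398). Of all genes, 20.0% rose and 22.3% fell in Pkd2-/- cells, and 13.6% and 13.5% in Pkd1-/- cells. No marker of intercalated cells (4 listed) or endothelium (4 listed) reached a mean of 10, and neither did 4 of 5 markers of each of proximal tubule, fibroblasts and leukocytes. The exception in the proximal tubule list was Lrp2, at 474 to 555 in Wt, 25 to 63 in Pkd1-/- and 738 to 1217 in Pkd2-/- libraries. Those in the fibroblast and leukocyte lists were Dcn, at 11 to 40 over all libraries, and Cd68, at 47 to 69. Neither Dcn nor Cd68 passed the test in either mutant. The part of these markers in the differences below was not tested.

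Against Wt, the members with large changes in 1 or both mutants were glutathione transferases, a pair of glutathione peroxidases, the aldehyde dehydrogenase Aldh1a1, the cytochrome Cyp1b1, the exporter Abcc4 and Htatip2. In Pkd1-/- cells, 6 of the 44 tested members passed an adjusted p of 0.05 in limma together with a limit of 1 on the log2 fold change (the fold limit), against 6.24% of all genes tested. Aldh1a1 and Htatip2 rose, where 2.96% of all genes did, and Gstm1, Gstm2, Gstt1 and Cyp1b1 fell, where 3.28% did. In Pkd2-/- cells, 13 members passed the same limits, against 9.62% of all genes. Gstm1, Gstm2, Htatip2 and Abcc4 rose, where 3.24% of all genes did, whereas Gpx3, Gpx8, Gsta4, Gstt1, Gstk1, Mgst2, Mgst3, Aldh1a1 and Cyp1b1 fell, where 6.38% did. Both comparisons share the Wt libraries.

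Without the fold limit, 20 members passed an adjusted p of 0.05 in Pkd1-/- cells (6 higher, 14 lower), against 27.1% of all genes (13.6% higher, 13.5% lower), and 31 in Pkd2-/- cells (15 higher, 16 lower), against 42.3% (20.0% higher, 22.3% lower). With libraries scaled to equal totals, the split in Pkd2-/- cells was 11 higher and 17 lower for the members, and 37.3% of all calls were higher, where it was 47.4% with the deposited scaling. The median log2 fold change of the 44 members was -0.13 in Pkd1-/- cells, where that of all genes was 0.011, and -0.001 in Pkd2-/- cells, where that of all genes was -0.006. Regardless of direction, the median size of the log2 fold change was 0.19 for the members and 0.21 for all genes in Pkd1-/- cells, and 0.41 and 0.30 in Pkd2-/- cells. Values of the 4 mutant and 4 Wt libraries did not overlap for 20 members in Pkd1-/- cells, against 27.1% of all genes, and for 28 in Pkd2-/- cells, against 37.2%. These shares of all genes were not matched for expression level, and 25 of the 44 tested members averaged at least 1000 normalized counts. For a single gene whose groups do not overlap, the exact permutation test of 4 libraries against 4 gives p = 0.0286 (two-sided), the smallest p it allows.

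**Figure D1:**
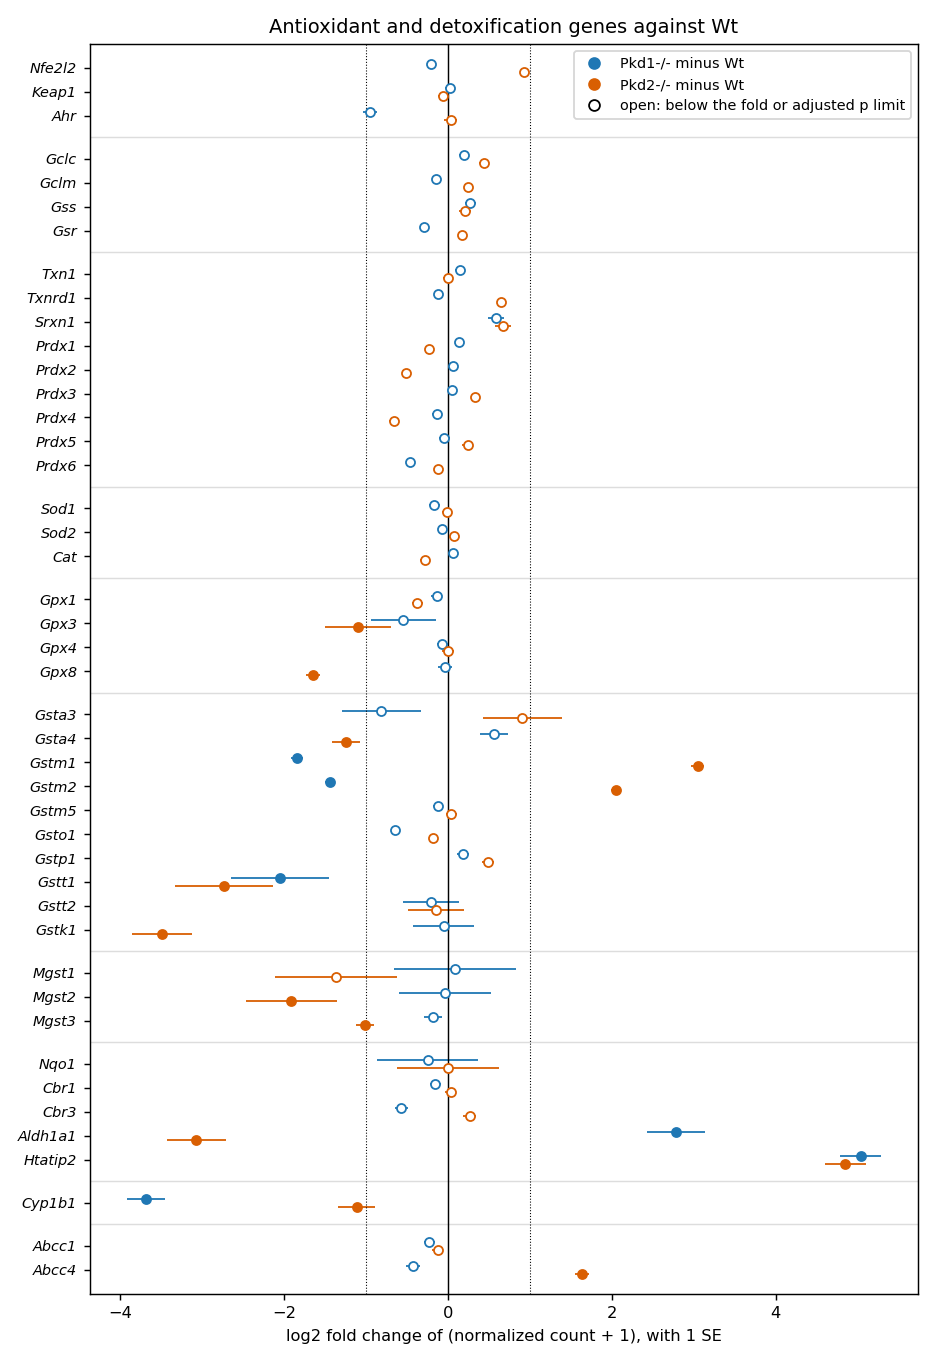
Log2 fold change (horizontal axis) of the 44 tested members against Wt, with bars of 1 standard error, in Pkd1-/- (blue) and Pkd2-/- (orange) cells. Members are grouped by role from the regulators at the top to the exporters at the bottom, filled points pass an adjusted p of 0.05 and the fold limit (dotted lines), and open points do not. Gstm1, Gstm2 and Aldh1a1 have filled points on opposite sides of 0 in the mutants.

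The members spanned the whole range of expression. Over all libraries, 25 members had a mean of at least 1000 normalized counts, 9 lay between 100 and 1000, 5 between 10 and 100, 5 between 1 and 10, and 6 below 1. Per kb of merged exons, Txn1 was at the top in Wt cells with 8325 normalized counts, followed by Gsto1 with 4109, Prdx2 with 3893, Prdx5 with 3730 and Gsr with 3707. Nqo1, the quinone reductase that often serves as a readout of NRF2, was near the bottom of the order, with 2.90 per kb. Its library values were 5, 9, 1 and 3 in Wt, 0, 7, 5 and 4 in Pkd1-/- and 4, 3, 7 and 2 in Pkd2-/- cells, so that no difference was detectable at this depth (limma, adjusted p = 0.822 and 1). Gstm1 ranked 23 per kb in Wt cells, with 515, and its level per kb in Pkd2-/- cells was 4241, above every other member in that genotype except Txn1 and Prdx5. Gsta1 was at 0 in every library, and 90.5% of its 50-base stretches also occur in transcripts of other genes, so that reads from it may not have been counted.

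**Figure D2:**
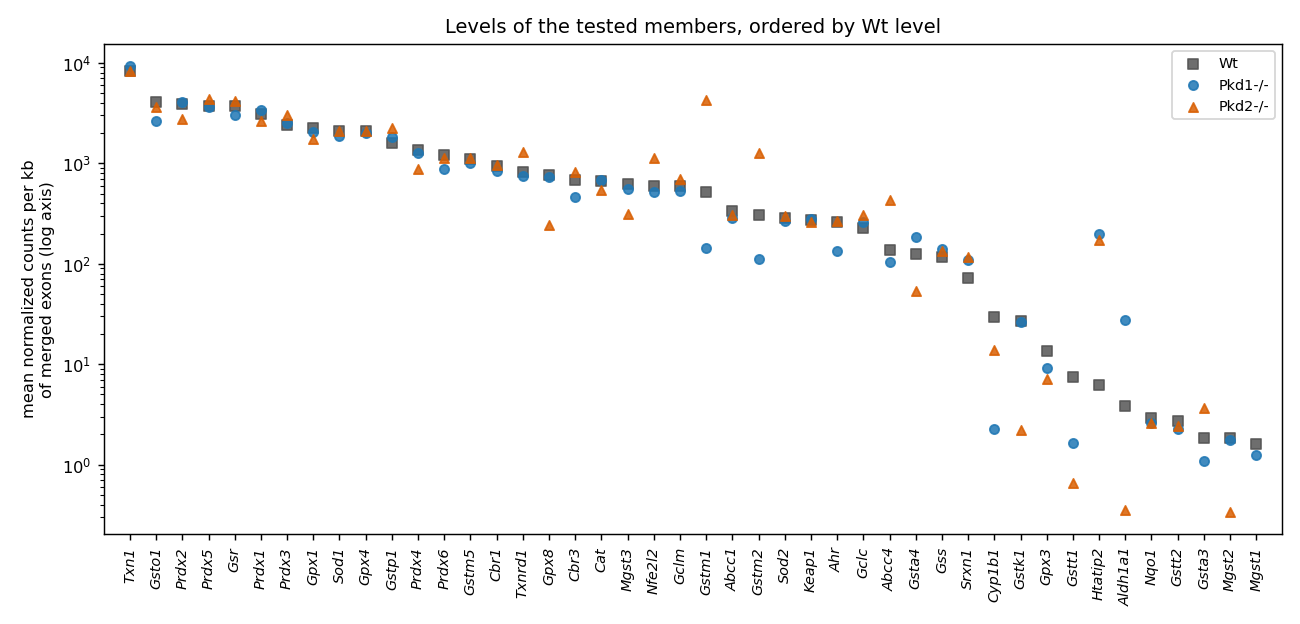
Mean normalized counts per kb of merged exons (vertical axis, logarithmic) of the 44 tested members in Wt (squares), Pkd1-/- (circles) and Pkd2-/- (triangles) cells, n = 4 libraries each, ordered by Wt level; means of 0 (Mgst1 in Pkd2-/-) are not drawn. From Txn1, at 8325 in Wt, to Srxn1, at 72.4, most members lie close together in the 3 genotypes, and the wide gaps belong to Gstm1, Gstm2, Htatip2, Aldh1a1, Cyp1b1, Gstk1 and Gstt1.

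Among the 3 regulators, Nfe2l2 was higher in Pkd2-/- cells, Ahr was lower in Pkd1-/- cells, and Keap1 passed the test in neither. Nfe2l2 (chr2:75675513-75704641, GRCm38, minus strand) held 2303, 2253, 2178 and 2308 normalized counts in the Wt libraries, 1994, 1889, 2062 and 1907 in Pkd1-/- and 4166, 4354, 4247 and 4402 in Pkd2-/- libraries. The 3 genotypes did not overlap, with Pkd2-/- highest and Pkd1-/- lowest. It rose 1.90-fold in Pkd2-/- cells (log2 fold change 0.92 ± 0.045 SE; limma, adjusted p = 5.35e-12), just under the fold limit, and was 0.868 times its Wt level in Pkd1-/- cells (log2 fold change -0.20 ± 0.045; limma, adjusted p = 0.00177).

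Keap1, the adaptor that delivers NRF2 to ubiquitin ligation, held 1183, 1307, 1367 and 1257 normalized counts in Wt, 1369, 1325, 1336 and 1163 in Pkd1-/- and 1275, 1261, 1197 and 1164 in Pkd2-/- libraries. The ranges overlapped in all 3 genotypes, and the log2 fold changes were 0.021 ± 0.062 and -0.061 ± 0.062 (SE; limma, adjusted p = 0.853 and 0.468).

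Ahr (chr12:35497974-35535038, minus strand) held 1745, 1505, 1438 and 1706 in Wt, 833, 822, 851 and 797 in Pkd1-/- and 1409, 1749, 1491 and 1912 in Pkd2-/- libraries. Every Pkd1-/- library was below every library of the other genotypes, which overlapped each other. Ahr fell 1.94-fold in Pkd1-/- cells (log2 fold change -0.95 ± 0.084 SE; limma, adjusted p = 6.24e-08), whereas in Pkd2-/- cells the log2 fold change was 0.031 ± 0.084 (limma, adjusted p = 0.806).

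The 4 enzymes that make and recycle glutathione all passed the test in both mutants, against 27.1% of all genes in Pkd1-/- and 42.3% in Pkd2-/- cells, each below the fold limit, though several of these calls did not hold under other settings. All 4 were higher in Pkd2-/- cells, and in Pkd1-/- cells Gclc and Gss were higher and Gclm and Gsr lower. Gclc, the catalytic subunit of glutamate-cysteine ligase, held 850, 832, 839 and 881 normalized counts in Wt, 962, 1021, 1030 and 900 in Pkd1-/- and 1047, 1194, 1173 and 1206 in Pkd2-/- libraries. The genotypes stood apart in that order, with log2 fold changes of 0.20 ± 0.061 and 0.44 ± 0.061 (SE; limma, adjusted p = 0.0186 and 8.68e-06). Gclm, its modifier subunit, held 3796, 3797, 3592 and 3707 in Wt, 3554, 3247, 3382 and 3227 in Pkd1-/- and 4285, 4645, 4286 and 4376 in Pkd2-/- libraries. Here Pkd1-/- was lowest and Pkd2-/- highest, without overlap, at log2 fold changes of -0.15 ± 0.046 and 0.24 ± 0.046 (limma, adjusted p = 0.0177 and 0.000276). In Pkd1-/- cells the call of Gclc was lost without Pkd1-/- replicate 2 or 3 (limma, adjusted p = 0.0646 and 0.0675) and that of Gclm without Pkd1-/- replicate 2 or 4 (limma, adjusted p = 0.0619 and 0.0606).

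Gss, the synthetase that adds glycine, held 668, 743, 674 and 666 in Wt, 933, 812, 758 and 831 in Pkd1-/- and 834, 733, 825 and 789 in Pkd2-/- libraries. All Pkd1-/- libraries were above Wt, and 1 Pkd2-/- library fell within the Wt range, which reached 743 in 1 library. The log2 fold changes were 0.27 ± 0.069 and 0.21 ± 0.069 (SE; limma, adjusted p = 0.00562 and 0.0207). Gsr, the reductase that returns oxidized glutathione to its reduced form, held 10419, 10185, 10050 and 10187 in Wt, 8976, 8204, 8201 and 8027 in Pkd1-/- and 11190, 12006, 11356 and 11595 in Pkd2-/- libraries. Gsr had the highest level per kb of the 4 enzymes, and its genotypes did not overlap, with log2 fold changes of -0.29 ± 0.044 and 0.18 ± 0.044 (limma, adjusted p = 4.42e-05 and 0.00289). The calls in Pkd2-/- cells were lost with equal library totals for Gss and Gsr (limma, adjusted p = 0.128 and 0.0522), and that of Gss also with equal upper quartiles or without any of Pkd2-/- replicates 1 and 3 and Wt replicates 1, 3 and 4 (limma, adjusted p = 0.0501 to 0.0626).

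In the thioredoxin and peroxiredoxin system, no gene reached the fold limit in either mutant. Of its 9 genes, 8 passed an adjusted p of 0.05 in Pkd2-/- cells (4 higher, 4 lower), where 42.3% of all genes did, and 3 in Pkd1-/- cells (1 higher, 2 lower), where 27.1% did. Txnrd1, the cytosolic thioredoxin reductase, rose from 5838 ± 213 normalized counts (SD, n = 4) in Wt to 9134 ± 155 in Pkd2-/- cells, a 1.56-fold change with no overlap (limma, adjusted p = 4.08e-10), and was 5346 ± 188 in Pkd1-/- cells (limma, adjusted p = 0.0317), a call lost under 7 alternatives, among them both other scalings and the fits without Pkd1-/- replicate 1 or 3 or Wt replicate 1, 2 or 3 (limma, adjusted p = 0.0603 to 0.105). Srxn1, the sulfiredoxin that rescues over-oxidized peroxiredoxins, rose in both. Its mean was 204 ± 21.6 in Wt, 306 ± 12 in Pkd1-/- and 326 ± 33.2 in Pkd2-/- cells (limma, adjusted p = 0.000105 and 1.11e-05).

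The peroxiredoxins split by gene in Pkd2-/- cells. Prdx4, of the endoplasmic reticulum, fell from 2891 ± 158 to 1833 ± 150 (log2 fold change -0.66; limma, adjusted p = 8.67e-08), cytosolic Prdx2 fell from 11874 ± 558 to 8336 ± 602 (-0.51; limma, adjusted p = 3.64e-07), and Prdx1 and Prdx6 fell with log2 fold changes of -0.23 and -0.13. Mitochondrial Prdx3 rose with a log2 fold change of 0.33 and Prdx5 with 0.24. The call of Prdx5 was lost with equal library totals (limma, adjusted p = 0.0515), and that of Prdx6 without Pkd2-/- replicate 4 or Wt replicate 1, 3 or 4 (limma, adjusted p = 0.0502 to 0.0871). In Pkd1-/- cells the peroxiredoxin that passed the test was Prdx6, which fell from 5871 ± 79.0 to 4249 ± 233 (-0.47; limma, adjusted p = 1.89e-07). Txn1 passed in neither mutant, with 8750 ± 322 in Wt, 9727 ± 1121 in Pkd1-/- and 8741 ± 463 in Pkd2-/- cells.

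Neither of the superoxide dismutases in the list, Sod1 and Sod2, passed the test against Wt. Sod1, the cytosolic copper and zinc enzyme, had log2 fold changes of -0.17 ± 0.065 and -0.013 ± 0.065 (SE; limma, adjusted p = 0.0627 and 0.902), and Sod2, the mitochondrial manganese enzyme, had -0.078 ± 0.050 and 0.074 ± 0.050 (limma, adjusted p = 0.288 and 0.257). Catalase, gene Cat, which breaks down hydrogen peroxide in peroxisomes, fell in Pkd2-/- cells from 1731 ± 115 to 1423 ± 64.0 normalized counts (SD, n = 4; limma, adjusted p = 0.000453).

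Of the 4 tested glutathione peroxidases, none passed the test in Pkd1-/- cells, where 27.1% of all genes did. Gpx1, Gpx3 and Gpx8 fell in Pkd2-/- cells, where 22.3% of all genes did. Gpx8 (chr13:113042753-113046410, minus strand), a peroxidase of the endoplasmic reticulum membrane, held 850, 765, 876 and 698 in Wt, 836, 738, 762 and 762 in Pkd1-/- and 234, 243, 289 and 250 in Pkd2-/- libraries. Wt and Pkd1-/- libraries shared a range, and every Pkd2-/- library was below it. The fall in Pkd2-/- cells was 3.14-fold (log2 fold change -1.65 ± 0.083 SE; limma, adjusted p = 1.04e-11), and in Pkd1-/- cells the log2 fold change was -0.038 ± 0.083 (limma, adjusted p = 0.799).

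Gpx3, the secreted peroxidase, was a low gene here, at 25, 26, 26 and 21 in Wt, 21, 15, 19 and 12 in Pkd1-/- and 12, 18, 19 and 3 in Pkd2-/- libraries. One Pkd2-/- library stood well below the rest. The log2 fold change in Pkd2-/- cells was -1.10 ± 0.40 (SE; limma, adjusted p = 0.0329), and without Pkd2-/- replicate 4, the library at 3, it was -0.58 (limma, adjusted p = 0.119). Gpx1, the main cytosolic peroxidase, fell from 3236 ± 239 to 2499 ± 168 in Pkd2-/- cells (limma, adjusted p = 0.000131). Gpx4, which reduces lipid hydroperoxides, had log2 fold changes of -0.068 and 0.0021 (limma, adjusted p = 0.546 and 0.988), although 34.7% of its 50-base stretches also occur in the pseudogene Gpx4-ps2.

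Gstm1 and Gstm2, glutathione transferases of the mu class, moved in opposite directions in the mutants. Gstm1 (chr3:108012255-108017973, minus strand) held 678, 854, 722 and 780 normalized counts in Wt, 214, 224, 181 and 224 in Pkd1-/- and 6007, 6583, 5921 and 6478 in Pkd2-/- libraries. The 3 genotypes were far apart in every library, with Pkd1-/- lowest and Pkd2-/- highest. Gstm1 fell 3.60-fold in Pkd1-/- cells (log2 fold change -1.84 ± 0.078 SE; limma, adjusted p = 2.29e-12) and rose 8.24-fold in Pkd2-/- cells (3.04 ± 0.078; limma, adjusted p = 6.45e-16). Compared directly, Pkd2-/- cells held 29.6 times as much as Pkd1-/- cells (limma, adjusted p = 6.06e-19).

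Gstm2, whose start lies 31.5 kb from that of Gstm1 (chr3:107981702-107986453, minus strand), followed the same order. It held 526, 520, 537 and 466 in Wt, 186, 192, 188 and 183 in Pkd1-/- and 2127, 2159, 2143 and 2081 in Pkd2-/- libraries. The replicates of each mutant lay within a narrow band and the bands did not meet. Gstm2 fell 2.74-fold in Pkd1-/- cells (log2 fold change -1.45 ± 0.061 SE; limma, adjusted p = 1.99e-12) and rose 4.15-fold in Pkd2-/- cells (2.05 ± 0.061; limma, adjusted p = 4.91e-15).

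Gstm5, a mu-class gene at the far end of the same cluster (chr3:107895821-107898686, plus strand), did not pass the test in either mutant. It held 1456, 1500, 1394 and 1292 in Wt, 1407, 1211, 1330 and 1239 in Pkd1-/- and 1503, 1426, 1564 and 1314 in Pkd2-/- libraries, with overlap in all comparisons. Log2 fold changes were -0.12 ± 0.066 and 0.041 ± 0.066 (SE; limma, adjusted p = 0.198 and 0.668). Of the genes between, Gstm7 rose in Pkd2-/- cells from 11.75 ± 1.71 to 30.0 ± 7.70 (SD, n = 4; limma, adjusted p = 0.00175), and Gstm6 and Gstm3, with means of 1 to 4.25 in Wt and Pkd2-/- cells, did not pass against Wt.

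Outside the Gstm cluster, the genes on either side moved less. Csf1 had log2 fold changes of -0.69 in Pkd1-/- and 0.31 in Pkd2-/- cells (limma, adjusted p = 5.87e-08 and 0.000442), and Ampd2 had -0.28 and -0.024 (limma, adjusted p = 0.000471 and 0.756). The median over the 50 nearest genes whose mean reached 10 normalized counts was -0.14 around Gstm1 in Pkd1-/- cells and -0.0083 in Pkd2-/- cells. Reads of the mu genes are in part ambiguous, since 18.9% of the 50-base stretches of Gstm1, 5.65% of those of Gstm2 and 9.44% of those of Gstm5 also occur in transcripts of other genes, for Gstm1 mostly in the pseudogene Gstm2-ps1.

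**Figure D3:**
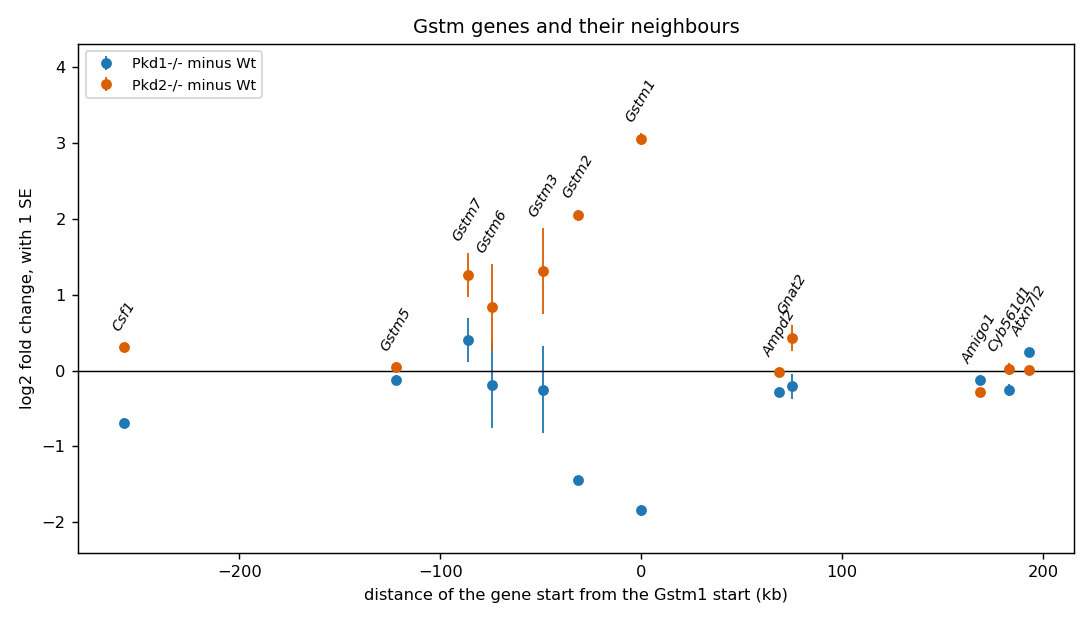
Log2 fold change against Wt (vertical axis, bars of 1 standard error) of named genes around Gstm1 by the distance of their start from the Gstm1 start in kb (horizontal axis), in Pkd1-/- (blue) and Pkd2-/- (orange) cells; predicted genes without a name are left out. Gstm1, at 3.04 and -1.84, and Gstm2, at 2.05 and -1.45, lie furthest from 0 in both colours, and Gstm5 lies near 0 in both.

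The promoter windows of the 3 mu genes are shown because these neighbours differ so much in response. Those of Abcc4, Htatip2 and Cyp1b1 stand for some of the other members with large changes. Each runs from 250 bases before to 50 bases after a transcript start in RefSeq for GRCm38.p6 and is written 5′ to 3′ on the gene's strand. Capitals mark matches, on either strand, to an antioxidant response element core (TGACNNNGC) or to the core of the xenobiotic response element (GCGTG).
Gstm1 (chr3:108017924-108018223, minus strand): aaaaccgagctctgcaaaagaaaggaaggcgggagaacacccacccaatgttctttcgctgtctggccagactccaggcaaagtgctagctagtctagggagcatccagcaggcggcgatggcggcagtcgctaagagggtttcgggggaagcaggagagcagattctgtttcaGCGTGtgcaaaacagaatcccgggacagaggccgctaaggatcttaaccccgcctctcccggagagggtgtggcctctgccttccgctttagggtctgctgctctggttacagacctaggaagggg
Gstm2 (chr3:107986371-107986670, minus strand): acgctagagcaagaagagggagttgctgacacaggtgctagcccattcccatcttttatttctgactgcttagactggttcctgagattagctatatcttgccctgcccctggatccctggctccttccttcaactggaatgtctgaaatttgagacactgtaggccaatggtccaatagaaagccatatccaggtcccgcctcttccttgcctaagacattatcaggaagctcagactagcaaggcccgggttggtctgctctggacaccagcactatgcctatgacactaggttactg
Gstm5 (chr3:107895604-107895903, plus strand): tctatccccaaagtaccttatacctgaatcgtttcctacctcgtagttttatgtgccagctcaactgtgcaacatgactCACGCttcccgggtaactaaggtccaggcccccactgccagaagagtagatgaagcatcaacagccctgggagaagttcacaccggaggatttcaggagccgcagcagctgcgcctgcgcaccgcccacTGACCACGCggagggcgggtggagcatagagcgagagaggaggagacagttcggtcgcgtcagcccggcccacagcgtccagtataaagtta
Abcc4 (chr14:118706170-118706469, minus strand): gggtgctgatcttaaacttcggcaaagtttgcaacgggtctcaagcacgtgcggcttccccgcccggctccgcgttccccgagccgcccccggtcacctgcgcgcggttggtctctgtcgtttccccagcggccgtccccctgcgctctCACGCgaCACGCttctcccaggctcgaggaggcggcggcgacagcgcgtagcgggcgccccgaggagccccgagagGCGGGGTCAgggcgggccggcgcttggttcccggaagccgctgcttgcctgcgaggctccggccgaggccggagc
Htatip2 (chr7:49758856-49759155, plus strand): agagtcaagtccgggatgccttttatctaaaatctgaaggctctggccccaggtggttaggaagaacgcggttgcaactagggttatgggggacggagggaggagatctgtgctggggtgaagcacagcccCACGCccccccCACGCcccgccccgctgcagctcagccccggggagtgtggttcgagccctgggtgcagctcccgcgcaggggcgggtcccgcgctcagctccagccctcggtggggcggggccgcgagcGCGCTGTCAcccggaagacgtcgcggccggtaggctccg
Cyp1b1 (chr17:79715012-79715311, minus strand): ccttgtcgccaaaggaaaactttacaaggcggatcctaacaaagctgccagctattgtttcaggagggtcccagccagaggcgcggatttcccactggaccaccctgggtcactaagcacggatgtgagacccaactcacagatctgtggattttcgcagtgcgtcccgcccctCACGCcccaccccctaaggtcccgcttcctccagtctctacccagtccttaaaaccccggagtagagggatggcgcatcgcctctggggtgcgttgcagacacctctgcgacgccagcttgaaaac

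The windows of Gstm1 and Gstm2 hold no match to the antioxidant core, and that of Gstm5 holds 1, TGACCACGC, which overlaps a match to the xenobiotic core. Gstm1 has 1 match to the xenobiotic core in the window shown and Gstm2 has 0. Second windows of Gstm1, Abcc4 and Htatip2 are not shown, and those of Abcc4 and Htatip2 hold 1 antioxidant core match each. Aldh1a1, Gpx8, Gstk1 and Gstt1 also had large changes, and their windows, not shown, hold no match to either core. Windows were found for 42 members (52 windows, since some genes have several starts). The antioxidant core matched in 13 of the 52 windows, 25.0%, where 12.4% of 32851 windows of this length from all genes hold it, and the xenobiotic core matched in 29 windows, 55.8%, where 32.4% of all windows hold it. Overlapping windows of Gpx4 and of Gstm1 count the same xenobiotic matches again. The members were listed for these pathways and not at random, so the shares are descriptive and were not tested. The 11 members with an antioxidant core match were Abcc4, Gclm, Gsta3, Gstm5, Htatip2, Mgst1, Nfe2l2, Prdx1, Sod1, Srxn1 and Txnrd1. Of these, Abcc4, Gclm, Htatip2, Nfe2l2, Srxn1 and Txnrd1 rose in Pkd2-/- cells, Prdx1 fell, and Gsta3, Gstm5, Mgst1 and Sod1 did not pass the test. In the same comparison, 20.0% of all genes rose and 22.3% fell, and of the 44 tested members 15 rose and 16 fell. Of the same 11 members, Htatip2 and Srxn1 rose in Pkd1-/- cells, Abcc4, Gclm, Nfe2l2 and Txnrd1 fell, and the others did not pass. There, 13.6% of all genes rose and 13.5% fell, and of the 44 tested members 6 rose and 14 fell. Gstm1 and Gstm2 were among the members that rose in Pkd2-/- cells without an antioxidant core match in their windows. Sequence outside the windows was not searched, so a gene without a match here may still have the element elsewhere. Whether a match goes with a rise was not tested. A match is a description of letters and not a measured site.

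**Figure D4:**
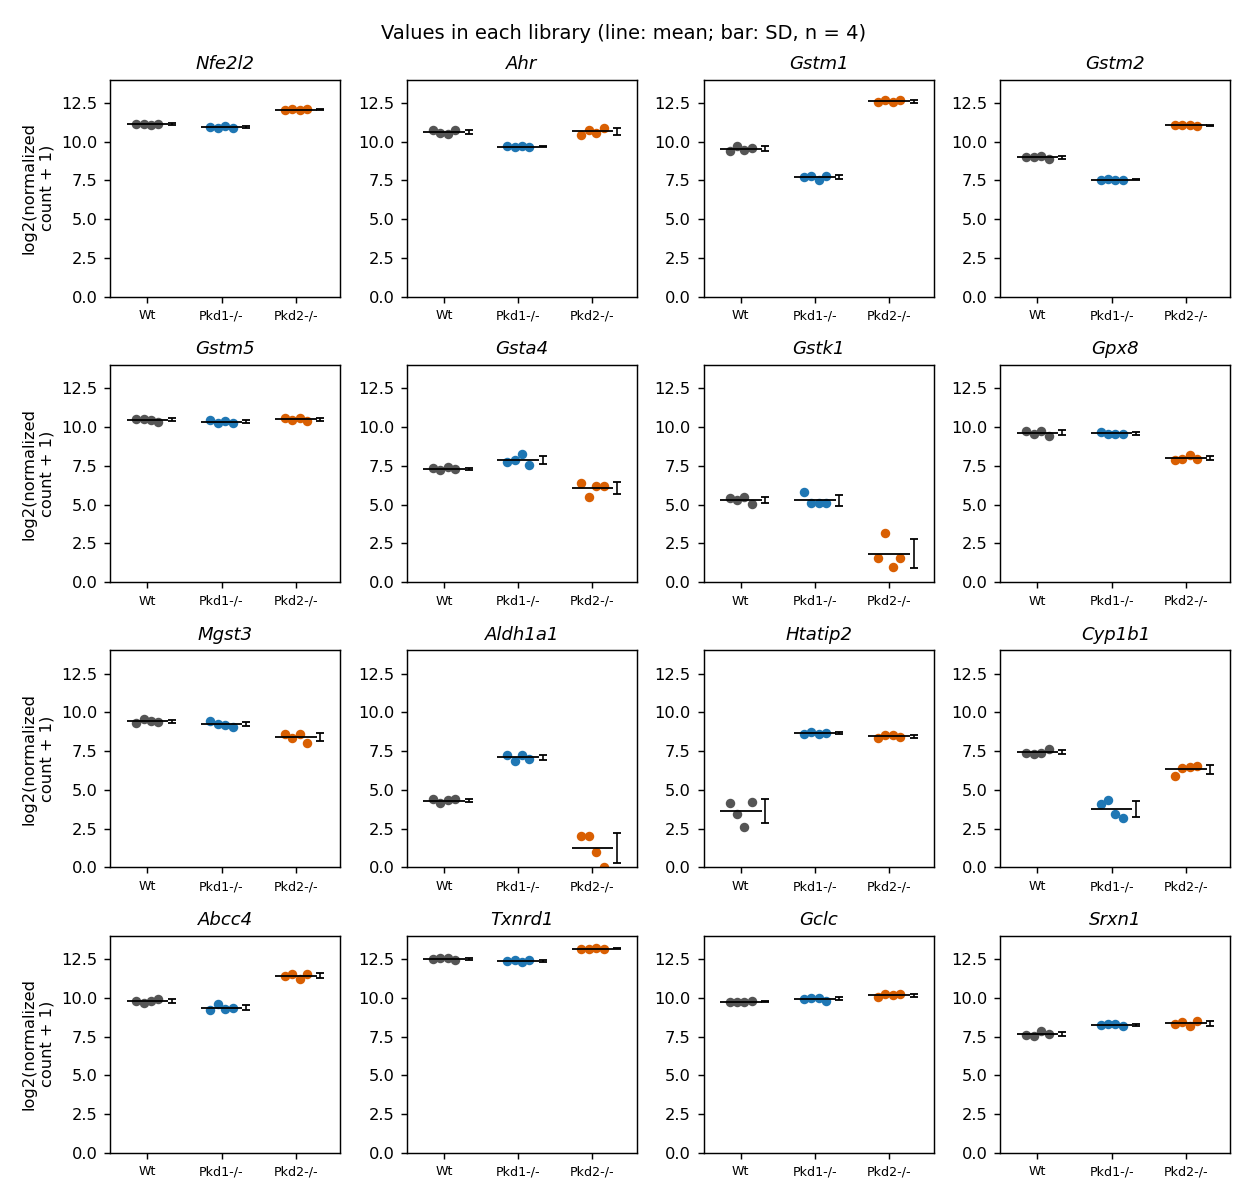
Each panel shows log2(normalized count + 1) (vertical axis, the same in all panels) of 1 member in the 4 libraries of Wt (grey), Pkd1-/- (blue) and Pkd2-/- (orange) cells, with the mean as a line and the SD as a bar (n = 4). Gstm1, Gstm2 and Nfe2l2 are highest in Pkd2-/- and lowest in Pkd1-/- libraries, Aldh1a1 has the reverse order, and Htatip2 is high in both mutants.

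Among the other glutathione transferases, Gsta4, Gstk1, Gstt1 and Gsto1 fell in 1 or both mutants, whereas Gstp1 rose in Pkd2-/- cells. Gsta4 (chr9:78182774-78209349, plus strand), which conjugates the lipid peroxidation product 4-hydroxynonenal, held 160, 148, 168 and 154 in Wt, 215, 237, 301 and 191 in Pkd1-/- and 83, 44, 73 and 71 in Pkd2-/- libraries. Pkd1-/- libraries were above Wt and Pkd2-/- libraries below it, without overlap. It rose 1.5-fold in Pkd1-/- cells (log2 fold change 0.56 ± 0.17 SE; limma, adjusted p = 0.0187) and fell 2.32-fold in Pkd2-/- cells (-1.24 ± 0.17; limma, adjusted p = 8.24e-06). Without Pkd1-/- replicate 3, the library at 301, the first value was 0.44 (limma, adjusted p = 0.0831).

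Gstk1 (chr6:42245935-42250447, plus strand), the transferase of mitochondria and peroxisomes, held 42, 39, 44 and 32 in Wt, 55, 33, 33 and 33 in Pkd1-/- and 2, 8, 1 and 2 in Pkd2-/- libraries. Wt and Pkd1-/- libraries shared a range, and all Pkd2-/- libraries were far below it. The mean fell 12.1-fold in Pkd2-/- cells (log2 fold change -3.49 ± 0.37 SE, and -2.49 with a pseudocount of 5; limma, adjusted p = 3.17e-07). Without Pkd2-/- replicate 2, the library at 8, the ratio of means was 23.6.

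Gstt1, of the theta class, was close to the detection limit at 8, 7, 10 and 21 in Wt, 0, 4, 1 and 5 in Pkd1-/- and 0, 2, 0 and 2 in Pkd2-/- libraries. Both mutants lay below all Wt libraries. The log2 fold changes were -2.05 ± 0.60 and -2.73 ± 0.60 (SE; limma, adjusted p = 0.0148 and 0.00101), and -1.12 and -1.41 with a pseudocount of 5. In Pkd1-/- cells the call was lost without Wt replicate 4, the library at 21 (-1.73; limma, adjusted p = 0.0591), and without Pkd1-/- replicate 1, the library at 0 (-1.55; limma, adjusted p = 0.0565).

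Gsta3, of the alpha class, held 5, 5, 9 and 13 in Wt, 5, 10, 1 and 3 in Pkd1-/- and 26, 18, 10 and 10 in Pkd2-/- libraries. It passed only the direct comparison of the mutants, in which Pkd2-/- cells held more (log2 fold change 1.72 ± 0.48 SE, and 1.12 with a pseudocount of 5; limma, adjusted p = 0.00645), with 1 Pkd1-/- library at 10, the value of the lowest Pkd2-/- libraries. Gsto1, of the omega class, fell in both mutants, where it held 5299 ± 240 (Pkd1-/-) and 7315 ± 269 (Pkd2-/-) against 8312 ± 354 in Wt cells (SD, n = 4; limma, adjusted p = 3.8e-09 and 0.00347). Gstp1, of the pi class, rose from 2478 ± 174 to 3482 ± 359 in Pkd2-/- cells (limma, adjusted p = 1.94e-05) and was 2823 ± 208 in Pkd1-/- cells (limma, adjusted p = 0.0619), with 33.7% of its 50-base stretches shared with Gstp2. Gstt2, a neighbour of Gstt1, had 11.25 ± 3.86, 9.50 ± 2.89 and 10.0 ± 3.56 in Wt, Pkd1-/- and Pkd2-/- cells and did not pass in either mutant (limma, adjusted p = 0.723 and 0.77).

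Membrane-bound transferases of the MAPEG family passed the test in Pkd2-/- cells for Mgst2 and Mgst3, where 42.3% of all genes passed. In Pkd1-/- cells none did, where 27.1% of all genes passed. Mgst3 (chr1:167371966-167393841, minus strand) held 624, 747, 697 and 672 in Wt, 682, 606, 588 and 543 in Pkd1-/- and 396, 324, 384 and 265 in Pkd2-/- libraries. Every Pkd2-/- library was below all others, and Wt and Pkd1-/- overlapped. The log2 fold change in Pkd2-/- cells was -1.01 ± 0.11 (SE; limma, adjusted p = 3.35e-07), and it crossed the fold limit of 1 without Pkd2-/- replicate 2 (-0.99), Pkd2-/- replicate 4 (-0.90) or Wt replicate 2 (-0.97).

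Mgst2, which can conjugate leukotriene A4, held 9, 9, 7 and 2 in Wt, 11, 4, 8 and 3 in Pkd1-/- and 0, 3, 0 and 2 in Pkd2-/- libraries. The lowest Wt library reached into the Pkd2-/- range. Its log2 fold change in Pkd2-/- cells was -1.91 ± 0.56 (SE; limma, adjusted p = 0.00949), and -0.89 with a pseudocount of 5. Mgst1 was at 0 in all Pkd2-/- libraries, which allows an expected count of up to 3 in each library taken alone. Its means were 3.25 in Wt and 2.50 in Pkd1-/- cells, so that a difference was not detectable at this depth (limma, adjusted p = 0.155 for Pkd2-/- against Wt).

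Among the quinone, carbonyl and aldehyde enzymes, Aldh1a1 went in opposite directions in the mutants. Aldh1a1 (chr19:20492715-20643465, plus strand), which oxidizes retinaldehyde to retinoic acid, held 20, 17, 19 and 20 in Wt, 152, 118, 150 and 129 in Pkd1-/- and 3, 3, 1 and 0 in Pkd2-/- libraries. No library of a genotype came near those of another. It rose 7.22-fold in Pkd1-/- cells (log2 fold change 2.78 ± 0.36 SE; limma, adjusted p = 7.36e-06). In Pkd2-/- cells it fell (log2 fold change -3.07 ± 0.36, and -1.86 with a pseudocount of 5; limma, adjusted p = 1.07e-06), where all 4 libraries were at or below 3 counts.

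Htatip2 (chr7:49759115-49773975, plus strand), an oxidoreductase-like protein of the short-chain dehydrogenase family, held 17, 10, 5 and 18 in Wt, 382, 423, 397 and 400 in Pkd1-/- and 327, 369, 371 and 342 in Pkd2-/- libraries. Both mutants lay far above Wt, and the Pkd1-/- libraries, in turn, lay just above the Pkd2-/- ones. It rose 32.0-fold in Pkd1-/- and 28.2-fold in Pkd2-/- cells (log2 fold change 5.03 ± 0.25 and 4.85 ± 0.25 SE; limma, adjusted p = 1.71e-11 and 1.18e-11), and the direct comparison of the mutants gave -0.19 ± 0.25 (limma, adjusted p = 0.583). The 50 nearest genes had median log2 fold changes of 0.050 and -0.085, and no 50-base stretch of Htatip2 occurs in another gene's transcripts.

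The carbonyl reductases lie next to each other on chromosome 16. Cbr3 fell in Pkd1-/- cells from 859 ± 66.9 to 580 ± 64.5 normalized counts (SD, n = 4; limma, adjusted p = 3.1e-05) and rose to 1031 ± 83.5 in Pkd2-/- cells (limma, adjusted p = 0.0148), a call lost with equal library totals (limma, adjusted p = 0.0765) and without Pkd2-/- replicate 1 or Wt replicate 4 (limma, adjusted p = 0.0534 and 0.0585). Cbr1 had 2396 ± 236, 2144 ± 102 and 2446 ± 128 in Wt, Pkd1-/- and Pkd2-/- cells (limma, adjusted p = 0.0844 and 0.721). In Pkd1-/- cells the nearest genes had median log2 fold changes of -0.25 around Cbr3 and -0.27 around Cbr1. The log2 fold change of Cbr3 there was -0.57, and -0.32 relative to that median. The part of this region in the fall was not tested.

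Of the CYP1 cytochromes, Cyp1a1 was detected in hardly any library, with a mean of 0.5 in Pkd1-/- cells and 0 in the others, and Cyp1b1 fell in both mutants. Cyp1b1 (chr17:79701537-79715061, minus strand), a cytochrome that metabolizes aromatic hydrocarbons and steroids, held 164, 162, 167 and 202 in Wt, 16, 19, 10 and 8 in Pkd1-/- and 58, 85, 87 and 92 in Pkd2-/- libraries. Wt was highest and Pkd1-/- lowest, without overlap between any genotypes. Cyp1b1 fell 13.1-fold in Pkd1-/- cells (log2 fold change -3.68 ± 0.23 SE; limma, adjusted p = 4.8e-10) and 2.16-fold in Pkd2-/- cells (-1.12 ± 0.23; limma, adjusted p = 0.000564), and without Pkd2-/- replicate 1 the second value was -0.97. Ahr fell only in Pkd1-/- cells, and its log2 difference between Pkd2-/- and Pkd1-/- cells was 0.98 ± 0.084 (limma, adjusted p = 1.42e-08), while that of Cyp1b1 was 2.57 ± 0.23 (limma, adjusted p = 2.46e-08). The part of Ahr in the values of Cyp1b1 was not tested.

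The exporters ended the list. Abcc4 (chr14:118482692-118706219, minus strand), which carries cyclic nucleotides and conjugated anions out of the cell, held 871, 793, 903 and 978 in Wt, 600, 784, 619 and 639 in Pkd1-/- and 2722, 2958, 2400 and 2961 in Pkd2-/- libraries. The Pkd2-/- libraries stood well above the rest, and all Pkd1-/- libraries were below Wt. It rose 3.11-fold in Pkd2-/- cells (log2 fold change 1.64 ± 0.087 SE; limma, adjusted p = 2.05e-11) and was 0.745 times its Wt level in Pkd1-/- cells (-0.43 ± 0.087; limma, adjusted p = 0.000931). Abcc1, an exporter of glutathione conjugates, fell in Pkd1-/- cells from 5047 ± 243 to 4314 ± 361 (SD, n = 4; limma, adjusted p = 0.0131) and was 4626 ± 384 in Pkd2-/- cells (limma, adjusted p = 0.13). The fall in Pkd1-/- cells was not called without Pkd1-/- replicate 1 (limma, adjusted p = 0.0518), and with equal library totals Abcc1 passed as lower in Pkd2-/- cells (limma, adjusted p = 0.0164).

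Some members lie on chromosomes whose genes as a whole were shifted. In Pkd2-/- cells the genes whose mean reached 10 normalized counts had a median log2 fold change of 0.33 on chromosome 2 (1058 genes) and 0.28 on chromosome 19 (482 genes), whereas on the other 18 chromosomes compared it lay between -0.083 and 0.036. In Pkd1-/- cells the largest were 0.18 on chromosome 19 and -0.18 on chromosome 5, which holds no tested member. Of the 9 members on chromosomes 2 and 19, Nfe2l2, Srxn1, Gss, Gstp1, Prdx3 and Prdx5 rose in Pkd2-/- cells, and Cat, Gsto1 and Aldh1a1 fell. Relative to the median of their nearest genes, the log2 fold changes were 0.67 for Nfe2l2, 0.39 for Srxn1 and 0.23 for Gstp1, and -0.054 for Gss, -0.17 for Prdx3 and -0.014 for Prdx5, while those of Cat and Gsto1 were -0.57 and -0.49. The part of the chromosomes in the members' values was not tested.

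**Figure D5:**
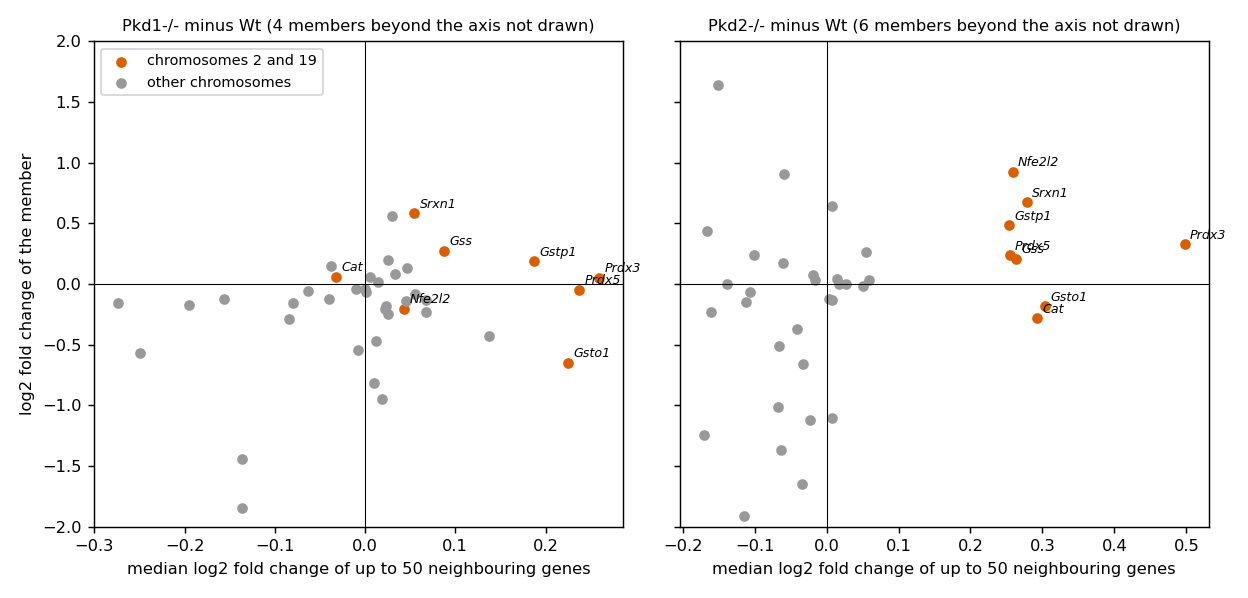
Log2 fold change of each tested member (vertical axis) against the median log2 fold change of up to 50 nearest genes whose mean reached 10 normalized counts (horizontal axis), in Pkd1-/- (left) and Pkd2-/- (right) cells, with members on chromosomes 2 and 19 in orange and labelled; members beyond a log2 fold change of 2 are not drawn. In Pkd2-/- cells the orange members lie to the right, with neighbour medians from 0.25 to 0.50, and Cat and Gsto1 lie below 0 in spite of that.

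Compared directly, the mutants differed in 11 members at the fold limit (6 higher and 5 lower in Pkd2-/- cells), against 11.8% of all genes (4.53% higher, 7.23% lower), and in 30 members at an adjusted p of 0.05, against 46.3%. Higher in Pkd2-/- than in Pkd1-/- cells were Nfe2l2 (log2 difference 1.13 ± 0.045 SE), Gsta3, Gstm1, Gstm2 (3.50 ± 0.061), Cyp1b1 and Abcc4 (2.06 ± 0.087). Lower in Pkd2-/- cells were Gpx8 (-1.61 ± 0.083), Gsta4 (-1.80 ± 0.17), Gstk1 (-3.43 ± 0.37), Mgst2 and Aldh1a1 (-5.85 ± 0.36). Each of these had an adjusted p of at most 0.00973 in limma.

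A further 68 genes of the same pathways gave 61 that could be tested. In Pkd1-/- cells, 4 of them passed the fold limit, against 6.24% of all genes, and 28 an adjusted p of 0.05 (16 higher, 12 lower), against 27.1%. In Pkd2-/- cells these counts were 11, against 9.62%, and 40 (21 higher, 19 lower), against 42.3%. Of 8 partners and regulators of NRF2, 6 rose and none fell in Pkd2-/- cells, and of 16 further genes linked to NRF2, 4 rose and 8 fell, where 20.0% of all genes rose and 22.3% fell. Chac1, which degrades glutathione, rose 4.69-fold in Pkd2-/- cells from 281 ± 35.9 to 1316 ± 121 (SD, n = 4; limma, adjusted p = 7.14e-11), and Slc7a11, the cystine importer that feeds glutathione synthesis, rose 3.23-fold from 102 ± 11.0 to 330 ± 37.3 (limma, adjusted p = 3.27e-10). Gstm7 was next, as given with the mu cluster.

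Among these further genes the exporter Abcc3 had the most negative log2 fold change in both mutants, at 477 ± 45.2 in Wt, 9.75 ± 4.19 in Pkd1-/- and 6.50 ± 1.73 in Pkd2-/- cells (SD, n = 4; limma, adjusted p = 3.84e-11 and 5.18e-12). Abcg2, an exporter of xenobiotics, was at 34.75 ± 8.18, 34.5 ± 7.05 and 0.25 ± 0.5 in the same order (limma, adjusted p = 5.45e-10 for Pkd2-/- against Wt), and Sod3, the extracellular superoxide dismutase, rose in Pkd1-/- cells and fell in Pkd2-/- cells, with means of 19, 47.75 and 3.75 (limma, adjusted p = 0.0185 and 0.000143). Aldh1a7, which lies near Aldh1a1 in sequence with 151 shared 50-base stretches, rose from 3.75 to 32.25 in Pkd1-/- cells (limma, adjusted p = 2.22e-05) and was at 0 in all Pkd2-/- libraries. Aldh2, the mitochondrial acetaldehyde dehydrogenase, fell in both mutants, from 2657 ± 139 in Wt to 748 ± 22.9 in Pkd1-/- cells and 1165 ± 94.3 in Pkd2-/- cells (SD, n = 4). The falls were 3.55-fold and 2.28-fold (limma, adjusted p = 7.4e-14 and 9.44e-12).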

How the data were processed

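RNA from 12 cultures of mIMCD3 cells was sequenced by the authors. The authors used Trim Galore for trimming, HISAT2 for alignment to GRCm38, htseq-count for gene counts and DESeq2 for the size factors of the libraries. The deposited values are scores in the sense that the authors divided counts by size factors and rounded the results to whole numbers; they are called normalized counts here. The strand setting is not given in the sources used here, so reads of overlapping antisense genes cannot be told apart. Cells were grown in 6 dishes per genotype, of which 4 were chosen by the authors on RNA purity. Which genes and lists were examined was chosen with earlier results of these data known.

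Gaps and pile-ups among the low values gave what 1 read is worth in each library, and from it the 23200000 to 30300000 reads on genes. Where 1 read is worth less than 1, neighbouring counts round together, so exact reads could not be recovered and the count model set in the design for raw counts was not used. A value of 0 means that no read was counted, but the expected count of the gene in that library may still be up to 3. This limit covers counting error only, since reads carry no molecular identifiers. Symbols, positions and merged exon lengths came from GENCODE M21, which holds 47223 of the 47642 identifiers; 419 were not found, and 0 sample columns were left unused.

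Genotypes were compared on log2(normalized count + 1) with limma 3.58.1 (lmFit, eBayes with trend; R 4.3.3) over the 18552 genes that averaged at least 1, all 12 libraries in 1 model, with Benjamini-Hochberg adjustment over all genes within each comparison. Log2 fold changes are on this scale, which understates changes of low genes; folds are ratios of means. Limits were an adjusted p of 0.05 and a log2 fold change of 1. Single members were also compared with a two-sided exact permutation test. The script was tested on simulated data. Values in every library are given for the regulators, the glutathione synthesis enzymes and each member past both limits in any comparison. Of the other pathway genes, the 3 highest and 3 lowest past both limits in each comparison with Wt are named. Neighbour medians use the 25 nearest genes on each side with a mean of at least 10. Shared sequence is the share of 50-base stretches of a gene's transcripts found in transcripts of other genes. Promoter windows are from RefSeq for GRCm38.p6; Abcc1, Ahr, Aldh3a1, Gclc, Gsr, Gsta4, Gstt2 and Prdx6 had no window. Scripts ran on Python 3.11.15 (numpy 2.4.6, pandas 2.3.3) and figures were drawn with matplotlib 3.10.9. Alternatives were pseudocounts of 0.5 and 5, no filter, a minimum mean of 10, scaling to equal upper quartiles or totals, a replicate block, fits of only 2 genotypes, and leaving out each library.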

Additional observations from a re-analysis of the deposited data

Results flagged for a closer look

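Of the sets of 4 libraries of a tested member, 128 were checked for a library that stood apart. In 4 of them, 1 library stood apart from the rest by more than Dixon's criterion allows, where chance gives about 1 in 20. Gss was at 743 in Wt replicate 2, with the others at 666 to 674. Gstk1 was at 55 in Pkd1-/- replicate 1, with the others all at 33, and at 8 in Pkd2-/- replicate 2, with the others at 1 to 2. Cyp1b1 was at 202 in Wt replicate 4, with the others at 162 to 167. Leaving out any of these libraries kept the calls of Gstk1 in Pkd2-/- cells and of Cyp1b1 in both mutants.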

How the results depend on the processing

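Counts of members past the limits stayed within 1.5 times the reported ones under every alternative run. Fits that each lacked 1 library gave 5 to 6 members at the fold limit in Pkd1-/- cells and 11 to 13 in Pkd2-/- cells, and 11 to 12 between the mutants; at an adjusted p of 0.05 they gave 17 to 23, 28 to 31 and 29 to 33. Replicate numbers did not pair the libraries, since correlations of same-numbered deviations ran from -0.0726 to 0.2. With the replicate block, 6, 13 and 11 members passed the fold limit and 24, 31 and 33 an adjusted p of 0.05. Of 2625 values of single members under the alternatives, 2608 kept their side of the limits, 14 lost a call, 3 gained one and 0 calls reversed. Some members without a call changed sign, among them Keap1 in Pkd1-/- cells (-0.015 to 0.073) and Ahr in Pkd2-/- cells (-0.046 to 0.101). Besides the losses given beside Gstt1, Gpx3, Mgst2, Mgst3 and Cyp1b1, Gpx3 in Pkd2-/- cells lost its call without a filter (limma, adjusted p = 0.0612), with a pseudocount of 5 (-0.83) and without Wt replicate 1, 2 or 3 (limma, adjusted p = 0.0637, 0.0676 and 0.0685), and Mgst2 between the mutants with a pseudocount of 5 (-0.85). Ahr passed the fold limit between the mutants without Pkd2-/- replicate 1 (1.05) or 3 (1.02), and Mgst1 without Pkd1-/- replicate 1 (-1.94; limma, adjusted p = 0.0476). At an adjusted p of 0.05 alone, calls lost against Wt stand beside their genes, and between the mutants those of Sod2 and Cbr1 were lost under 4 and 5 alternatives (limma, adjusted p = 0.0555 to 0.241 and 0.0507 to 0.176), while Txn1 passed as lower in Pkd2-/- cells with equal totals or upper quartiles (limma, adjusted p = 0.0106 and 0.0262). The cause was not tested. Members below about 10 normalized counts are limited by depth.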
